A study of Mus musculus with 8 samples.

Results

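The genes described here are 8 regulators of mitochondrial biogenesis, the process by which a cell makes more mitochondria. They are the coactivators Ppargc1a, Ppargc1b and Pprc1, the transcription factors Nrf1, Gabpa, Esrra and Ppara, and the deacetylase Sirt1. They were taken as the non-control probes whose transcript in the scanner files is a RefSeq transcript of a listed gene, which gave 18 probes. Of these, 13 probes of 7 genes were flagged by the scanner software as well above background on 4 or more of the 8 arrays, and these genes were among the 23105 features tested, while Ppargc1a had no such probe. RNA of femoral growth plate cartilage from 8 mice, littermates aged 12 days, was hybridised to 1-colour Agilent arrays, 4 of genotype CreTW and 4 of genotype Cre. The growth plate is the cartilage disc whose chondrocytes multiply, swell and secrete matrix, which makes a long bone longer. As background on the study, animals of both genotypes carry a Cre recombinase driven by the collagen II promoter, which acts in cartilage. The CreTW animals carry in addition a dominant-negative form of Twinkle, the helicase of mitochondrial DNA replication, that is switched on where Cre has acted, whereas the Cre animals do not. The labels give the genotypes by these names alone. The probe of Twnk, the mouse gene of Twinkle, had log2 levels of -2.64 to -1.85 in CreTW cartilage, against -2.28 to -1.85 in Cre cartilage (-0.10 ± 0.21, SE, adjusted p = 0.89 by limma), and since it is not known whether it reads the transgene, it does not check the labels.

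Biogenesis needs nuclear genes for most mitochondrial proteins and for the machinery that copies and transcribes mitochondrial DNA. PGC-1 coactivators do not bind DNA themselves. They dock on transcription factors such as NRF1, GABP, ERRα and PPARα and recruit the enzymes that open chromatin, so that respiratory chain, import and fatty acid oxidation genes are transcribed. Much of their control is on the protein, through phosphorylation by AMPK and deacetylation by SIRT1, and RNA levels do not measure it.

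The binding sequences of these factors are shown because they define targets by promoter sequence. Promoter windows of 250 bases before to 50 after each start, 32851 in all, were taken from RefSeq (GRCm38.p6) and searched on both strands. The palindromic NRF1 motif, spelled by the capitals of the Ppara window shown here, was in 0.971% of windows, the core CCGGAAG bound by GABP and by other ETS factors in 8.86%, the ERR motif TCAAGGTCA in 0.423% and the cyclic AMP response element TGACGTCA, through which Ppargc1a is known to be induced, in 1.79%. None of the 4 motifs contains another. Windows were present for 7 of the 8 regulators. Among them the NRF1 motif was found in that of Ppara and CCGGAAG in that of Gabpa, and the ERR and cyclic AMP motifs in none, which says only that these letters are not in these windows. The 120 bases before the start are shown for those regulators, and for Tfam, the mitochondrial transcription factor and a known target of both NRF1 and GABP, with the matching letters in capitals (in Gabpa on the opposite strand).
Gabpa, chr16:84835004-84835123, plus strand: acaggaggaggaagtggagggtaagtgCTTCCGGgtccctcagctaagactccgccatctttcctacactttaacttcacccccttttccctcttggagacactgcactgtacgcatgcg
Tfam, chr10:71238045-71238164, minus strand: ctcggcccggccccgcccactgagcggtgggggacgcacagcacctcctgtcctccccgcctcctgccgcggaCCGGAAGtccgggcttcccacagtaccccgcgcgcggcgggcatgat
Ppara, chr15:85735656-85735775, plus strand: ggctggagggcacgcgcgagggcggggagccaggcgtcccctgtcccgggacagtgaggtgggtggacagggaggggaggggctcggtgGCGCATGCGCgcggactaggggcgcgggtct

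A value below is a log2 level, the log2 of the processed intensity minus that of the array's 75th percentile. A level can be set against the same probe on other arrays, but not against another probe. Differences are CreTW minus Cre on that scale, with the SE or 95% interval from limma on 4 arrays of each genotype. The adjusted p of limma is that of Benjamini and Hochberg, taken over all 23105 features. The share of probes well above background was 45.4% to 57.9%, and the number of arrays limits the precision. Chondrocyte markers were in place, with 15 of 15 well above background on all 8 arrays and Col2a1 and Acan the brightest, with log2 levels of 9.66 to 10.02 and 8.62 to 8.86 in CreTW cartilage and of 9.68 to 10.18 and 8.47 to 9.10 in Cre cartilage. Markers of other cell types were present too and moved between arrays. Skeletal muscle markers, 19 of 20 measured, had a summed level (in multiples of the array's 75th percentile) of 49.9 to 691 on the CreTW arrays and of 36.5 to 106.6 on the Cre arrays. Of that list Myog had no probe past the filter, and Cox6a2, a muscle subunit of complex IV, was called (4.45 ± 0.63, SE, adjusted p = 0.0271 by limma). The brightest markers of the other lists differed by 1.46 (Tnnt3) and 0.31 (Tnni2) for muscle, -0.81 (Acp5) and -0.62 (Ctsk) for osteoclasts, -0.05 (Col1a1) and -0.15 (Alpl) for osteoblasts, and 0.39 (Col3a1) and 0.35 (Dcn) for fibroblasts. They differed by -0.03 (Kdr) and -0.27 (Emcn) for endothelium, -0.62 (Hba-a1) and -0.23 (S100a9) for marrow, and 0.03 (Fabp4) and 0.15 (Pnpla2) for adipocytes. None of these was called. Of measured markers, 19 of 19 for muscle, 11 of 11 for fibroblasts and 4 of 5 for adipocytes were higher in CreTW cartilage. Lower there were 9 of 9 for osteoclasts, 8 of 8 for osteoblasts, 13 of 15 for chondrocytes, 7 of 8 for endothelium and 8 of 10 for marrow. Of all features, 48.4% were higher. Of the 19 muscle markers, 9 were well above background on all 8 arrays. Others, such as Myh3 and Actn3 (4 arrays each), could pass the filter on the arrays where they were high. The 19 of 19 is therefore a description and not a test.

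None of the 7 measured regulators passed the test between the genotypes. The adjusted p-values lay between 0.579 and 0.996, no gene had an unadjusted p under 0.05, and the genotypes overlapped on every one of the 13 probes. Over all features, 0.346% were called at an adjusted p of 0.05, 10.7% had an unadjusted p under 0.05 and 6.70% had genotypes that did not overlap. With 0.346% called, 0 of 7 is near the background and is not a result about these genes. What the arrays bound is the size of a difference. The 95% interval lay within 1 log2 unit of 0, that is within a 2-fold change, for all 7 genes, and within 0.5 log2 unit for 5 of them. For Ppara, which was dim and well above background on 5 arrays, the interval bounds the measured signal only. The median difference of the 7 was -0.05, beside -0.01 for all features, and 5 were negative and 2 positive.

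**Figure D1:**
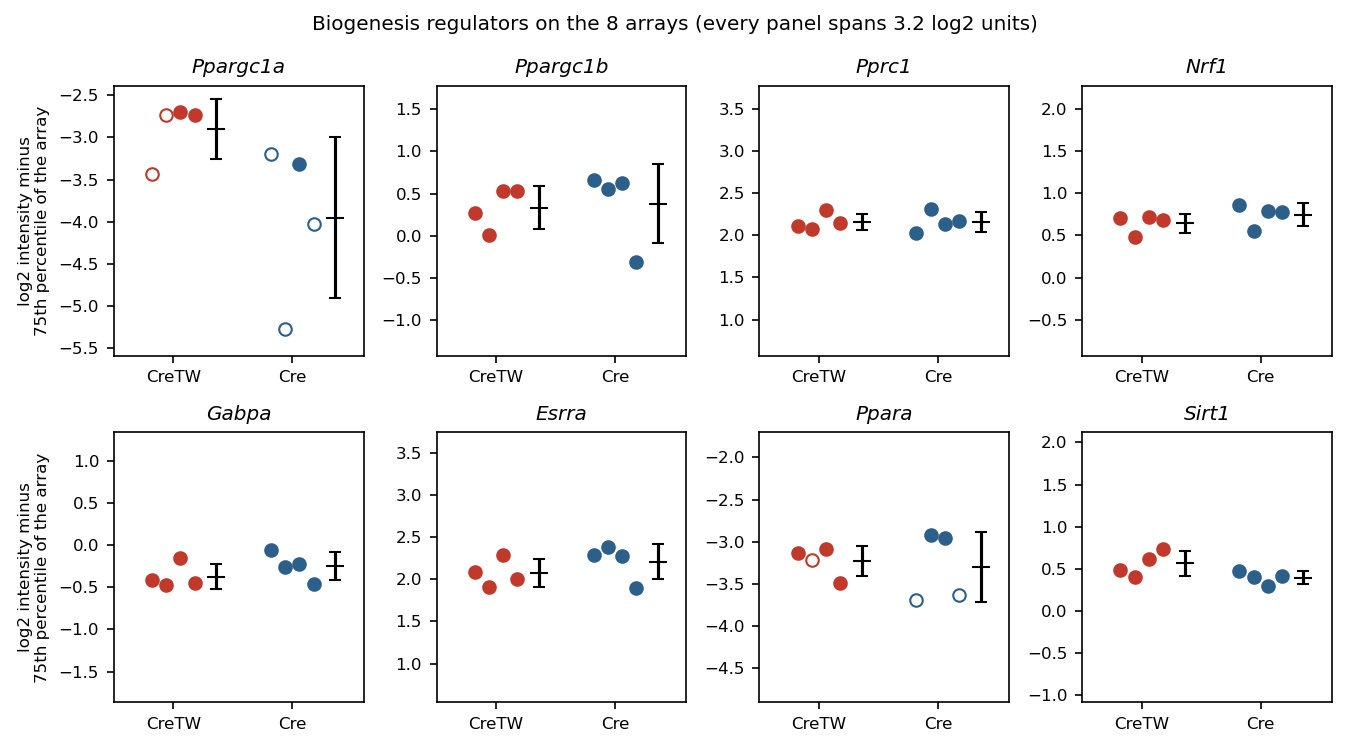
Log2 level (log2 intensity minus the array's 75th percentile) of the brightest probe of each regulator, with CreTW arrays left and Cre arrays right in the order of replicates 1 to 4. Filled points were well above background and open points were not, bars give the mean ± SD (n = 4), and each panel spans the same range of log2 units. The genotypes overlap in all 8 panels, and Ppargc1a has 3 filled points.

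Ppargc1a, the inducible PGC-1α of brown fat, muscle and liver, was at the edge of detection. On its brighter probe the log2 levels were -3.44, -2.74, -2.70 and -2.73 in CreTW replicates 1 to 4, against -3.20, -5.28, -3.31 and -4.03 in Cre replicates 1 to 4. The probe was well above background only in CreTW replicates 3 and 4 and Cre replicate 3. CreTW replicate 2 had a higher level than Cre replicate 3 but was not well above background, and the lowest signal well above background was 29.4 scanner units on its array and 12.2 on that of Cre replicate 3. The measured means differed by 1.05 log2 units (-2.90 ± 0.36 in CreTW and -3.95 ± 0.96 in Cre, SD, n = 4 each). In a fit of 45616 features without the filter on dim probes, the interval was 0.0037 to 2.10, with an unadjusted p of 0.0494 and an adjusted p of 1.0 by limma. In that fit 4.75% of features had an unadjusted p under 0.05 and 0.0592% were called. Without Cre replicate 2 the difference was 0.61, and with arrays below background raised to the lowest signal well above it the difference was 0.33. The other Ppargc1a probe was well above background on 0 of 8 arrays.

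Skeletal muscle markers varied over the same arrays. The skeletal muscle score, the mean centred log2 level of the 19 markers, was -1.02, 3.23, 2.77 and 1.87 in CreTW replicates 1 to 4, against -2.03, -2.87, 0.23 and -2.17 in Cre replicates 1 to 4. Of these markers, 9 were well above background on all 8 arrays. The 3 arrays with the highest Ppargc1a levels, all CreTW, were the 3 with the highest muscle scores, and the array with the lowest, Cre replicate 2, was the same for both. Of these arrays, CreTW replicate 2 and Cre replicate 2 were not well above background for Ppargc1a, so their ranks rest on undetected signal. The part of muscle RNA in the Ppargc1a signal was not tested. In a bulk sample, fewer cells of a type and less RNA per cell cannot be told apart.

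Ppargc1b, the PGC-1β coactivator that is also known from osteoclasts, was well above background on all 8 arrays. Its log2 levels were 0.27, 0.00, 0.53 and 0.54 in CreTW replicates 1 to 4, against 0.66, 0.55, 0.62 and -0.31 in Cre replicates 1 to 4. Cre replicate 4 lay far below the other 3, and the remaining Cre arrays were above every CreTW array. The difference was -0.05 ± 0.23 (SE), with an interval of -0.58 to 0.48 and an adjusted p of 0.96 by limma. Without Cre replicate 4 it was -0.28. A second, dimmer Ppargc1b probe, well above background on 3 arrays of each genotype, had a difference of -0.23, with an interval of -1.14 to 0.68. Both probes followed the same order over arrays closely (r = 0.931 over 8 arrays).

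Pprc1 encodes PRC, the PGC-1 relative induced when quiescent cells re-enter the cell cycle. It had log2 levels of 2.11, 2.07, 2.30 and 2.14 in CreTW replicates 1 to 4, against 2.03, 2.31, 2.13 and 2.16 in Cre replicates 1 to 4. Arrays of both genotypes were mixed over the whole range. The difference was -0.0018 ± 0.09 (SE), with the narrowest interval of the 7 genes, -0.21 to 0.21, or 0.86-fold to 1.16-fold (adjusted p = 0.996 by limma). A dim Pprc1 probe, above background on 2 arrays of each genotype, differed by -0.12.

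Among the transcription factors, Nrf1, the nuclear respiratory factor that binds promoters of respiratory chain genes, had 4 probes to different transcripts. The brightest (NM_001164226) had log2 levels of 0.70, 0.48, 0.72 and 0.68 in CreTW replicates 1 to 4, against 0.86, 0.55, 0.79 and 0.77 in Cre replicates 1 to 4. The probe for NM_001164227 had levels of -0.07, 0.01, 0.25 and 0.21 in CreTW cartilage, against -0.07, 0.08, -0.16 and -0.13 in Cre cartilage. The measured sign thus depended on the probe, with -0.10 ± 0.10 (SE, adjusted p = 0.74 by limma) at the first and an interval of -0.07 to 0.41 around 0.17 at the second. The NM_001164228 probe was at -0.01, and the NM_001164229 probe was well above background on 0 arrays. The probes did not follow one another over the 8 arrays (r of -0.353 to -0.116), so none of these small shifts was shared among them.

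Gabpa, the DNA-binding subunit of GABP, also called NRF2 in this field, had 3 probes, each well above background on all 8 arrays. The brightest had log2 levels of -0.42, -0.48, -0.15 and -0.45 in CreTW replicates 1 to 4, against -0.06, -0.27, -0.22 and -0.46 in Cre replicates 1 to 4. Its difference was -0.12 ± 0.12 (SE), with an interval of -0.39 to 0.14 (adjusted p = 0.723 by limma). The others were at -0.12 and -0.08, so the 3 probes gave similar values, all within the spread of the arrays. Over the 8 arrays the probes followed one another only loosely (r of 0.142 to 0.459).

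Esrra, the orphan nuclear receptor ERRα, had log2 levels of 2.09, 1.91, 2.29 and 2.01 in CreTW replicates 1 to 4, against 2.29, 2.38, 2.27 and 1.90 in Cre replicates 1 to 4. As with Ppargc1b, Cre replicate 4 and CreTW replicate 2 were the lowest arrays. The difference was -0.14 ± 0.13 (SE), with an interval of -0.43 to 0.16, or 0.74-fold to 1.12-fold (adjusted p = 0.726 by limma). Without Cre replicate 4 it was -0.24.

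Ppara, the fatty acid-sensing nuclear receptor that drives fatty acid oxidation in liver, was dim. Its log2 levels were -3.13, -3.21, -3.08 and -3.49 in CreTW replicates 1 to 4, against -3.69, -2.92, -2.96 and -3.63 in Cre replicates 1 to 4. CreTW replicate 2 and Cre replicates 1 and 4 were not well above background. The difference was 0.07 ± 0.20 (SE, adjusted p = 0.925 by limma), and -0.09 with those arrays raised as above. A second probe was well above background on 0 arrays.

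Sirt1, the NAD-dependent deacetylase that acts on PGC-1α, had the lowest p of the regulators. Its log2 levels were 0.49, 0.40, 0.62 and 0.74 in CreTW replicates 1 to 4, against 0.48, 0.40, 0.29 and 0.42 in Cre replicates 1 to 4. CreTW replicates 1, 3 and 4 lay above all Cre arrays, while replicate 2 lay among them. The difference was 0.17 ± 0.10 (SE), with an interval of -0.05 to 0.39, or 0.96-fold to 1.31-fold (adjusted p = 0.579 by limma). A dim second probe, above background on 2 CreTW arrays and 0 Cre arrays, differed by 0.55 as measured and by 0.21 with arrays raised.

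**Figure D2:**
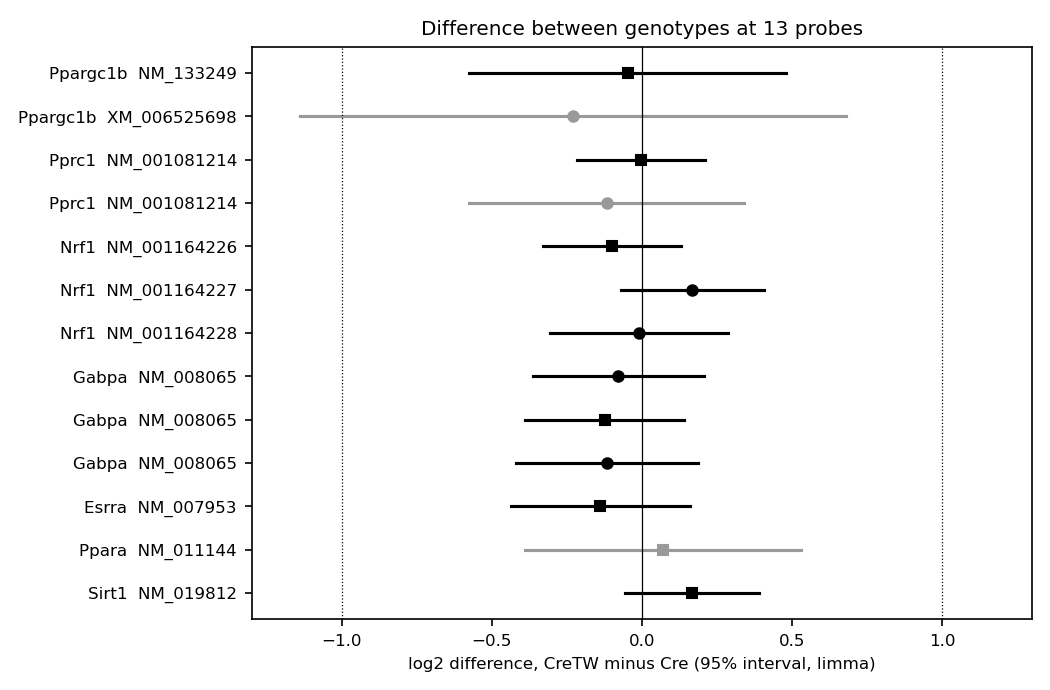
Log2 difference (CreTW minus Cre) with its 95% limma interval at the 13 probes that passed the filter, where squares mark the probe used for the gene, black marks probes well above background on all 8 arrays and dotted lines mark 2-fold changes. All intervals include 0, and all but that of the dim Ppargc1b probe lie inside the dotted lines.

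The within-genotype spread differed among the regulators. It was 0.11 log2 units for Pprc1, 0.12 for Sirt1 and Nrf1, 0.16 for Gabpa, 0.19 for Esrra, 0.32 for Ppara and 0.37 for Ppargc1b. Ppargc1b was at the 84th percentile of all features in this spread and Pprc1 at the 17th.

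On the probes used for the genes, Esrra, Gabpa and Ppargc1b varied together over the 8 arrays. Pearson's r was 0.859 for Esrra and Gabpa, 0.816 for Esrra and Ppargc1b and 0.719 for Gabpa and Ppargc1b. These r are given as a description, since the values of a point come from the same array. The values of Gabpa are those of its brightest probe, which its other probes followed only loosely (r of 0.362 and 0.459). Levels of the regulators were set against marker scores of cell types. Of 56 relations between the 7 regulators and 8 marker scores, 2 passed by Pearson's r after Benjamini-Hochberg adjustment and 0 by Spearman's rho. The permutations exchanged all 8 arrays regardless of genotype, and the values of a point again come from the same array. These p-values are therefore descriptive too. The 2 relations are not separate results, since the same 2 arrays were lowest in both scores. Esrra correlated with the endothelial score at r = 0.967 (exact permutation p = 0.00077, adjusted p = 0.041) and rho = 0.929 (exact permutation p = 0.0022, adjusted p = 0.0625). Without the 2 arrays farthest from the median of the score, r was 0.924. With the osteoblast score, Esrra had r = 0.962 (exact permutation p = 0.0015, adjusted p = 0.041) and rho = 0.929 (exact permutation p = 0.0022, adjusted p = 0.0625), and r = 0.975 without the 2 farthest arrays. With the osteoclast score, the values were r = 0.904 (exact permutation p = 0.0037, adjusted p = 0.069) and rho = 0.881 (exact permutation p = 0.0072, adjusted p = 0.0676) for Esrra, and r = 0.837 without the 2 farthest arrays. For Ppargc1b and the osteoclast score they were r = 0.812 (exact permutation p = 0.0103, adjusted p = 0.0713) and rho = 0.881 (exact permutation p = 0.0072, adjusted p = 0.0676), and r = 0.879 without the 2 farthest arrays. Other lists were as close to Ppargc1b. The chondrocyte score had r = -0.823 (exact permutation p = 0.0117, adjusted p = 0.0713), rho = -0.571 (exact permutation p = 0.151, adjusted p = 0.445) and r = -0.637 without the 2 farthest arrays. Pearson's r of Ppargc1b was 0.813 with the endothelial score, 0.806 with the osteoblast score and 0.797 with the adipocyte score (exact permutation p of 0.0100 to 0.0157, adjusted p of 0.0713 to 0.0798), and rho was 0.595, 0.667 and 0.881 (exact permutation p = 0.132, 0.0831 and 0.0072, adjusted p = 0.412, 0.332 and 0.0676). Without the 2 farthest arrays r was 0.518, 0.803 and 0.823. The adipocyte score rests on 5 of 11 listed markers. Plin1, Cidec, Ucp1, Retn, Cfd and Lipe did not pass the filter, and Adipoq was well above background on only 4 arrays. For Gabpa and the osteoclast score they were r = 0.810 (exact permutation p = 0.0185) and rho = 0.810 (exact permutation p = 0.0218), with adjusted p-values of 0.0863 and 0.135, and r = 0.735 without the 2 farthest arrays. Gabpa was closer to the endothelial score (r = 0.869, exact permutation p = 0.0116, adjusted p = 0.0713, rho = 0.833, exact permutation p = 0.0154, adjusted p = 0.108) and the osteoblast score (r = 0.866, exact permutation p = 0.0127, adjusted p = 0.0713, rho = 0.857, exact permutation p = 0.0107, adjusted p = 0.0857), with r = 0.812 and 0.810 without the 2 farthest arrays. None of these relations of Ppargc1b and Gabpa passed the adjustment. The arrays lay in 2 rows of 1 slide with 4 arrays each, too few for a correlation within a row.

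The summed level of osteoclast markers, 9 of 10 measured and all 9 well above background on 8 arrays, was 279 to 1031 on the CreTW arrays and 424 to 1191 on the Cre arrays, and Calcr had no probe past the filter. CreTW replicate 2 and Cre replicate 4 had the lowest osteoclast scores, -1.38 and -0.62, and these were the arrays with the lowest Ppargc1b and Esrra. The same arrays were lowest in the osteoblast score (-0.65 and -0.57), the endothelial score (-0.49 and -0.41) and the adipocyte score (-0.44 and -0.41). The match was thus not particular to osteoclasts, though the adipocyte score held only 5 of 11 listed markers. Cre replicate 4 also had the highest chondrocyte score, 0.65. The part of these cells in the levels of the regulators was not tested.

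**Figure D3:**
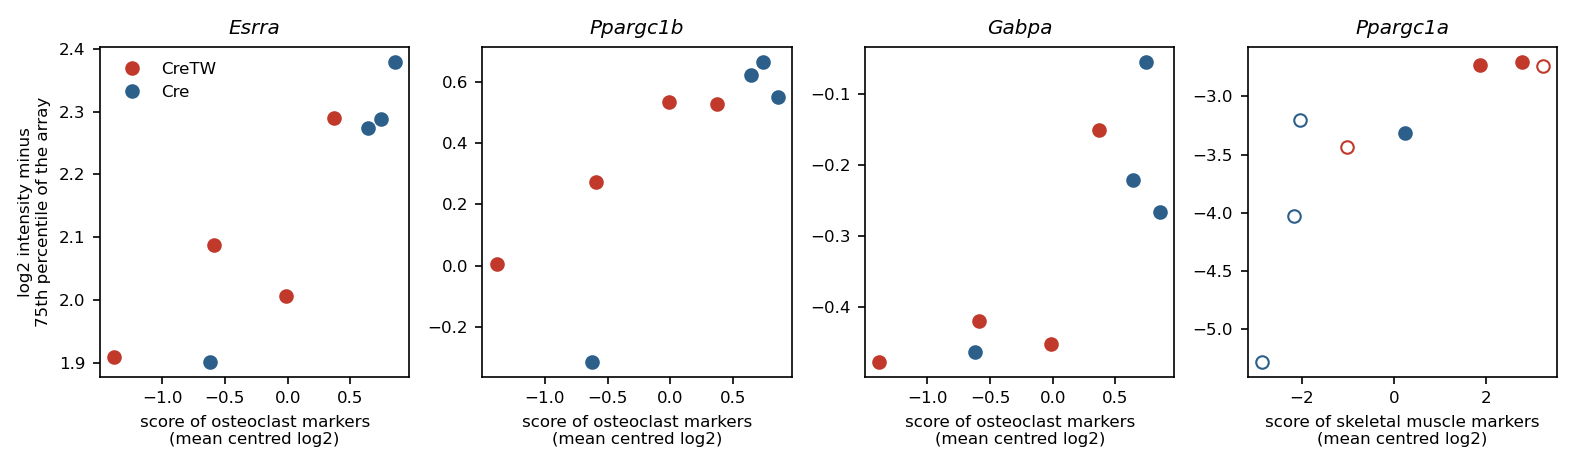
Log2 level of Esrra, Ppargc1b and Gabpa against the osteoclast marker score of each array, and of Ppargc1a against the skeletal muscle score, with CreTW arrays in red, Cre arrays in blue and open points not well above background. Cre replicate 4, with an osteoclast score of -0.62, sits with the low CreTW arrays, and the 3 highest Ppargc1a points have muscle scores of 1.87 to 3.23.

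The genes whose levels followed each regulator most closely over the 8 arrays were taken from 13279 named features, so high r values arise by search alone. Ccdc9b and the endothelial adhesion molecule Icam2 were closest to Esrra (r = 0.996 and 0.99), and Mlkl, an effector of necroptosis, and the guidance ligand Slit3 were closest to Ppargc1b (0.99 and 0.985). Dnah6 and the phosphatase Ptprj were closest to Gabpa (0.984 and 0.974), and Atp11a and Dync1h1, the cytoplasmic dynein heavy chain, to Sirt1 (0.98 and 0.972). For Nrf1 they were Atp6v1g2 and Pogz (0.952 and 0.9495), for Pprc1 the phosphatase Fig4 and the Golgi tethering subunit Cog3 (0.9245 and 0.924), and for Ppara Cldn15 and Zscan22 (0.909 and 0.903).

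Genes around the regulators were followed in 6 lists, written with earlier results of these data known. No member of any list was called, at a background of 0.346%, and the list medians lay between -0.02 and 0.03, beside -0.01 for all features. The counts of unadjusted p under 0.05 below stand beside 10.7% of all features by limma. Among 29 measured partners in the nucleus (of 32), 18 differences were positive and 11 negative and the median was 0.03. Of them 3 had an unadjusted p under 0.05 by limma, 1 higher and 2 lower. The brightest were the histone acetyltransferase Crebbp (0.07 ± 0.09, SE) and the retinoid receptor Rxra (0.09 ± 0.10), the PPAR partner. Esrrg and Esrrb, relatives of Esrra, did not pass the filter. Rxrg, another retinoid X receptor and one known from muscle, had the lowest p of the list and was named after its value was seen. Its log2 levels were -0.38, -0.16, -0.59 and -0.27 in CreTW replicates 1 to 4, against -1.36, -1.31, -1.40 and -0.62 in Cre replicates 1 to 4. The groups did not overlap, as for 6.70% of all features, and the difference was 0.83 ± 0.19 (SE, adjusted p = 0.186 by limma). It was called without Cre replicate 4 (1.01, adjusted p = 0.0221 by limma), the Cre array nearest to the CreTW ones. The 2 lower genes, also named after their values were seen, were Nr1h3 (-0.74 ± 0.29) and Max (-0.19 ± 0.08, SE, adjusted p = 0.420 and 0.445 by limma).

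The kinases, sirtuins and NAD enzymes that act on PGC-1 or supply SIRT1 had 32 of 33 members measured, a median of -0.01 and 6 unadjusted p-values under 0.05, 2 higher and 4 lower, by limma. Akt1 and the arginine methyltransferase Prmt1, the brightest, were each at -0.01 (SE 0.08 and 0.10). All 6 were named after their values were seen. Prkag3, the muscle form of the AMPK γ subunit, was at 1.53 ± 0.48 (SE, adjusted p = 0.312 by limma), well above background on 4 CreTW arrays and 1 Cre array. Its highest arrays, CreTW replicates 2, 3 and 4, and its lowest, Cre replicate 2, were also those of the skeletal muscle score. Camk4, a calcium-dependent kinase that can induce Ppargc1a, had log2 levels of 1.80, 1.78, 1.76 and 1.87 in CreTW replicates 1 to 4, against 1.40, 0.70, 0.81 and 1.47 in Cre replicates 1 to 4. Its groups did not overlap, as for 6.70% of all features, and the difference was 0.71 ± 0.18 (SE, adjusted p = 0.227 by limma). Mapk11, the p38β kinase, was at -0.60 ± 0.14 (SE, adjusted p = 0.196 by limma). It ran the other way, lowest in CreTW replicates 2, 3 and 4 and highest in Cre replicate 2, and the part of muscle RNA in the values of Prkag3 and Mapk11 was not tested. The other lower genes were Prkab1 (-0.30 ± 0.10), Stk11 (-0.21 ± 0.09) and Sirt6 (-0.22 ± 0.09, SE, adjusted p of 0.343 to 0.448 by limma). The groups of Mapk11, Prkab1 and Sirt6 did not overlap either. Repressors of PGC-1 had 18 of 19 members measured, a median of -0.01 and 1 unadjusted p under 0.05 by limma. That gene was Ncor1, named after its value was seen, which was higher (0.19 ± 0.07, SE, adjusted p = 0.431 by limma) and whose groups did not overlap. The kinase Rps6kb1, among the brightest of the list, was at -0.17 ± 0.10 (SE, unadjusted p = 0.127 by limma).

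Targets of NRF1 and GABP had 38 of 39 members measured. They include the mitochondrial transcription factors and subunits of the respiratory chain. Of them 19 were positive and 19 negative, the median was -0.0042, and all 38 intervals lay within a 2-fold change. Their range was -0.28 to 0.15, and 2 had an unadjusted p under 0.05 by limma, both lower. The brightest, the glutaredoxin Glrx2 and the complex IV subunit Cox6a1, were at -0.06 ± 0.12 and -0.09 ± 0.09 (SE).

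Targets of ERRα had 28 of 30 measured, with a median of -0.02, 26 intervals within a 2-fold change and 3 unadjusted p-values under 0.05 by limma, all higher. Slc25a4, the heart and muscle ADP/ATP carrier, was at 0.19 ± 0.08 and Atp5b, the catalytic ATP synthase subunit, at -0.02 ± 0.09 (SE). Cox8b, the heart and muscle form of a complex IV subunit, was named after its value was seen. Its log2 levels were -2.86, 1.44, 0.82 and -0.33 in CreTW replicates 1 to 4, against -4.58, -4.63, -2.29 and -5.30 in Cre replicates 1 to 4, and of the Cre arrays only replicate 3 was well above background. The order of the arrays resembled that of the skeletal muscle score, and CreTW replicate 1 lay below Cre replicate 3. Its measured difference was 3.97 ± 0.97 (SE, adjusted p = 0.214 by limma). Fabp3, the heart-type fatty acid binding protein and a target of ERRα and PPARα, was at 0.57 ± 0.16 (SE, adjusted p = 0.26 by limma), also named after its value was seen. Its groups, like those of Slc25a4, did not overlap, as for 6.70% of all features. The list shares Mb, myoglobin, with the skeletal muscle markers. The part of muscle RNA in these values was not tested.

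Targets of PPARα, the enzymes of fatty acid oxidation and their relatives, had 35 of 40 measured, a median of 0.02 and 6 unadjusted p-values under 0.05 by limma, 4 higher and 2 lower. The thiolases Acaa1a and Acaa2 were the brightest, at -0.09 ± 0.09 and -0.31 ± 0.20 (SE). Creb3l3, a liver transcription factor named after its value was seen, was at -1.305 ± 0.35 (SE, adjusted p = 0.254 by limma). Acads, the other lower gene, was at -0.21 ± 0.09 (SE, adjusted p = 0.453 by limma). The 4 higher genes, Acot2, Fabp3, Pex11a and Cpt1b, were also named after their values were seen. Acot2 had the lowest p of the list, at 0.55 ± 0.14 (SE, adjusted p = 0.240 by limma). Pex11a was at 0.25 ± 0.08 (SE, adjusted p = 0.313 by limma), and its groups did not overlap, as for 6.70% of all features. Cpt1b, the muscle carnitine palmitoyltransferase, was at 0.67 ± 0.28 (SE, adjusted p = 0.448 by limma), with 3 of 4 Cre arrays above background. The 5 members without a probe past the filter, among them Fgf21, Cyp4a10 and Cyp4a14, were not tested.

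**Figure D4:**
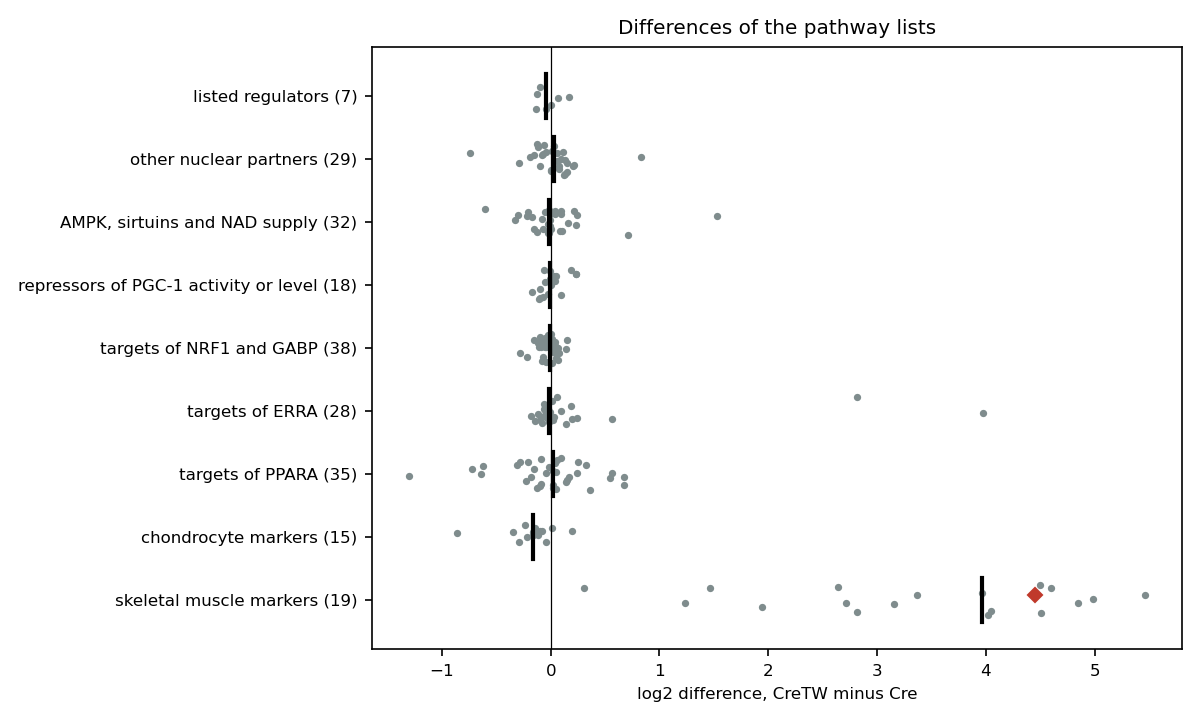
Log2 difference (CreTW minus Cre) of each measured gene of the regulators and of 6 pathway lists, with the chondrocyte and skeletal muscle markers below, the number of measured genes in brackets, black bars at medians and a diamond for a gene called at an adjusted p of 0.05. Medians of the pathway lists lie between -0.02 and 0.03, while the muscle markers have a median of 3.96 and hold the 1 called gene, Cox6a2. Of the 19 muscle markers, 9 were well above background on all 8 arrays.

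Genes whose promoter windows hold these motifs are targets chosen by sequence and not by a list. Of 11201 tested genes with a window, 35 were called higher and 4 lower, or 0.348%, 1333 had an unadjusted p under 0.05, or 11.9%, and the median difference was -0.01. Of 227 tested genes with the NRF1 motif, 1 was called, Mettl22, named after its value was seen, 16 had an unadjusted p under 0.05, or 7.05%, and the median was -0.01. Of 2022 with the CCGGAAG core, 3 were higher and 3 lower, or 0.297%, and 166 had an unadjusted p under 0.05, or 8.21%, with a median of -0.03. Of 37 with the ERR motif and 389 with the cyclic AMP motif, 0 were called by limma, 3 and 32 had an unadjusted p under 0.05, or 8.11% and 8.23%, and the medians were -0.01 and 0.00. A match is a description of letters and does not show that a factor binds there in cartilage.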

How the data were processed

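Per the file headers, the deposited intensity values came from Agilent's Feature Extraction software (version 11.5.1.1, array design on mm9). The processed intensity used here has the background subtracted within each array. The authors used GeneSpring 14.9 on them, per the series' design text. Their deposited log2 table matched the log2 of the processed intensity after 1 constant was taken off each array (r = 1.0 for all 8), with column medians of -3.04 to -2.94. The flags per spot, deposited in the same files as other values, gave detection.

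Spots of a probe were averaged, log2 was taken and the 75th percentile subtracted. Probes with the flag for signal well above background on 4 or more arrays were kept. Names came from RefSeq transcripts of GRCm38.p6 (of 56605 probes, 32994 had 1 symbol, 0 several and 23611 none), and the brightest probe stood for a gene. Genotypes were compared with limma 3.58.1 in R 4.3.3, tested on simulated data, and correlations by exact permutation (two-sided). Replicate numbers in the labels did not pair the arrays. The design text gives 4 mice of each genotype.

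The regulators, lists, markers and tests were chosen with earlier results of these data known. Named genes were all 8 regulators, from each pathway list the members called (up to 4, by p) or else its 2 brightest, from each marker list its 2 brightest, and the 2 features most like each regulator by Pearson's r. No sequence is printed for Ppargc1b. A gene that the rule names is not reported here. Alternatives were the array median, quantile normalization, normexp with an offset of 50 (on the median signal, as the files used here hold no mean signal), the authors' table, no filter or one on all 8 arrays, other uses of a gene's probes, slide row and replicate number as blocks, array weights, moderation with trend and robust, and each array left out in turn. Fits for Ppargc1a without the filter, fits of each slide row alone, dim arrays raised to background and correlations under other settings were added after seeing the data.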

Additional observations from a re-analysis of the deposited data

Results flagged for a closer look

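In 2 of 26 groups of 4 arrays (13 probes in each genotype), 1 array stood apart from the other 3 by the gap test of Dixon, which flags about 1 group in 20 by chance. Ppargc1b was at -0.31 in Cre replicate 4, and the nearest Cre array was at 0.55. Nrf1 on its brightest probe was at 0.48 in CreTW replicate 2, and the nearest CreTW array was at 0.68.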

How the results depend on the processing

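The 7 measured regulators had 153 values under the alternatives. Of these 136 kept the direction, 17 had the other direction, 0 were called, and the lowest adjusted p was 0.32 by limma. In place of 80, the number of features called was 128 with normexp, 27 without the filter, 53 with slide row as a block, 127 with array weights, 0 in slide row 1 alone and 0 in slide row 2 alone, and 42 to 75 when an array was left out. Replicate numbers did not pair the arrays (same-number correlations of -0.012, -0.1, 0.31 and -0.03), and with the replicate block 12 features were called. Among the nuclear partners 1, Rxrg, was called with array weights, and 0 to 1 when an array was left out. Leaving out an array turned Ppargc1b (-0.28 to 0.064), Pprc1 (-0.049 to 0.049), Ppara (-0.060 to 0.20), Prmt1 (-0.061 to 0.039), Akt1 (-0.034 to 0.016), Glrx2 (-0.12 to 0.0022) and Atp5b (-0.067 to 0.022). Slide row 2 alone turned Ppargc1b (0.38), Pprc1 (0.074), Gabpa (0.040), Esrra (0.060), Akt1 (0.015), Glrx2 (0.045), Atp5b (0.12) and Acaa2 (0.10), and slide row 1 alone Prmt1 (0.052). Normexp turned Pprc1 (0.023), Prmt1 (0.010), Akt1 (0.021) and Glrx2 (0.0067). The mean of a gene's probes turned Nrf1 (0.019), Akt1 (0.023) and Glrx2 (0.0048), and array weights turned Ppara (-0.079), Prmt1 (0.034) and Akt1 (0.012). The cause of these turns was not tested. Without the filter, Ppargc1a lay between 0.20 (normexp) and 1.31. Dim signal limits what can be said of Ppargc1a and Ppara.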
